A study of Mus musculus with 2 samples.

Results

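The 2 mature miRNAs of the miR-22 hairpin, mmu-miR-22-3p and mmu-miR-22-5p (miR-22-3p and miR-22-5p below, where mmu stands for mouse), were followed in knee joint cartilage of Col2a1Tsc1KO and control mice. They were taken by name from the deposited arrays and are 2 of 1247 mouse miRNAs measured there, with 4 probes and 80 spots on each array. One array carried RNA of a Col2a1Tsc1KO sample, in which the growth-restraining gene Tsc1 is deleted under the cartilage collagen gene Col2a1, and the other carried RNA of a control sample labelled wildtype. Both samples came from male mice aged 8 weeks. The sources used here do not give how many mice each sample pooled. The labels do not say in which cells the deletion took place, and a miRNA array has no probe for Tsc1 mRNA, so the deletion could not be checked. With 1 array per group there is no replicate check and no test of any difference below, and both arrays lay on 1 slide. Every error given is a standard error over spots within the arrays and covers technical noise alone.

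A miRNA silences messenger RNAs that pair with its seed, the bases near its 5′ end. In human osteoarthritic cartilage miR-22 is known as a miRNA that accumulates with disease and represses PPARA and BMP7, a regulator of lipid metabolism and a growth factor that maintains cartilage matrix. In other tissues miR-22-3p represses the histone deacetylase Hdac4. Tsc1 is part of the complex that restrains mTORC1, the growth kinase complex. The messenger RNA targets were not measured on these arrays.

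Both arms come from 1 hairpin, so the 2 mature sequences are shown first, with the seed (bases 2 to 8) in capitals. They are RefSeq sequences on build GRCm38.p6, both on the plus strand, miR-22-5p at chr11:75463734-75463755 and miR-22-3p at chr11:75463772-75463793.
miR-22-3p: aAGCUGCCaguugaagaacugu
miR-22-5p: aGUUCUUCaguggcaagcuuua
Neither seed occurred at bases 2 to 8 of any other of the 1738 mature sequences in the RefSeq table, so the arms share a seed with no other miRNA listed there and not with each other.

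The hairpin, Mir22, spans chr11:75463716-75463810 and lies within the span of the long noncoding RNA gene Mir22hg (chr11:75461539-75466690). It is shown with both mature arms in capitals, miR-22-5p on the left.
Mir22: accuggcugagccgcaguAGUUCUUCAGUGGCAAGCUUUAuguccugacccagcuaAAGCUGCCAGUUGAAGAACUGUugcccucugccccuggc
In the structure predicted by RNAfold (-41.9 kcal/mol), 19 of the 22 bases of miR-22-3p pair with miR-22-5p.

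Each arm was read by 2 probes, which are complementary to its 3′ part. They are shown because they set what the array could see: capitals mark the probe bases that pair with the seed.
miR-22-3p 18-base probe: acagttcttcaactGGCA
miR-22-3p 19-base probe: acagttcttcaactGGCAG
miR-22-5p 18-base probe: taaagcttgccactGAAG
miR-22-5p 19-base probe: taaagcttgccactGAAGA
The 18-base probes covered bases 5 to 22 of their arm and the 19-base probes bases 4 to 22, so only 4 or 5 of the 7 seed bases were read. Each probe matched 1 mature sequence of the table exactly. The closest other match to the miR-22-3p probes was miR-3966, on chromosome 10, which differs from miR-22-3p at 2 of 21 aligned bases, shown in capitals.
miR-3966: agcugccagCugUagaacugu
Neither of the 2 probes for miR-3966 was well above background on either array, with mean intensities of -5.15 and -4.27 on the Col2a1Tsc1KO array and -5.64 and -4.30 on the control array. For the miR-22-5p probes the closest other mature sequence had 6 mismatches.

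The signal over background of the whole arrays was similar. Spots well above background made up 21.1% of miRNA spots on the Col2a1Tsc1KO array and 19.6% on the control array, and negative-control spots had median intensities of 4.93 and 5.02 (arbitrary units, in the same order). The Col2a1Tsc1KO array had 296 miRNAs and the control array 281 with a probe well above background, and 257 miRNAs were so on both. Intensities were divided by the 75th percentile of probes passing the background mark on both, which was higher by 0.41 on the log2 scale on the Col2a1Tsc1KO array, while 4 spike-in probes differed by a mean of 0.046 before scaling.

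The 3p arm, mmu-miR-22-3p, was bright on both arrays and higher on the Col2a1Tsc1KO array. Its scaled intensity was 1219 on the Col2a1Tsc1KO array and 500.2 on the control array, a log2 difference of 1.29 ± 0.011 (SE over spots, 2 probes, 1 array each), or 2.44-fold. It ranked 25 of 257 miRNAs by difference and was 1 of 40 that were at least 2-fold higher, which are 15.6% of those measured on both arrays. In whole cartilage, more cells of a type and more RNA per cell cannot be told apart.

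The spots of both miR-22-3p probes fell into separate ranges on the 2 arrays. Before scaling, the 18-base probe had a lowest, median and highest intensity of 769, 817.5 and 912 over 18 usable spots on the Col2a1Tsc1KO array, against 240.0, 256 and 277 over 19 spots on the control array. The 19-base probe had 2330.0, 2405 and 2490.0 over 16 spots on the Col2a1Tsc1KO array, against 695, 731 and 754 over 19 spots on the control array. No Col2a1Tsc1KO spot of either probe overlapped the control spots, before or after scaling. The share of all probes for which this holds was not counted, so the separation is not particular to miR-22-3p on these values. The coefficient of variation over spots lay between 1.95% and 4.34% for these probes, and no spot was saturated.

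Both probes gave nearly the same difference between the arrays. It was 1.25 ± 0.020 for the 18-base probe and 1.32 ± 0.010 for the 19-base probe on the log2 scale, after scaling. The gap of 0.066 between them is larger than their spot errors, yet below the median gap of 0.083 between the most distant probes of a miRNA, over 191 miRNAs with at least 2 probes. Without scaling the probes stood at 1.66 and 1.73, or 3.17-fold and 3.31-fold.

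**Figure D1:**
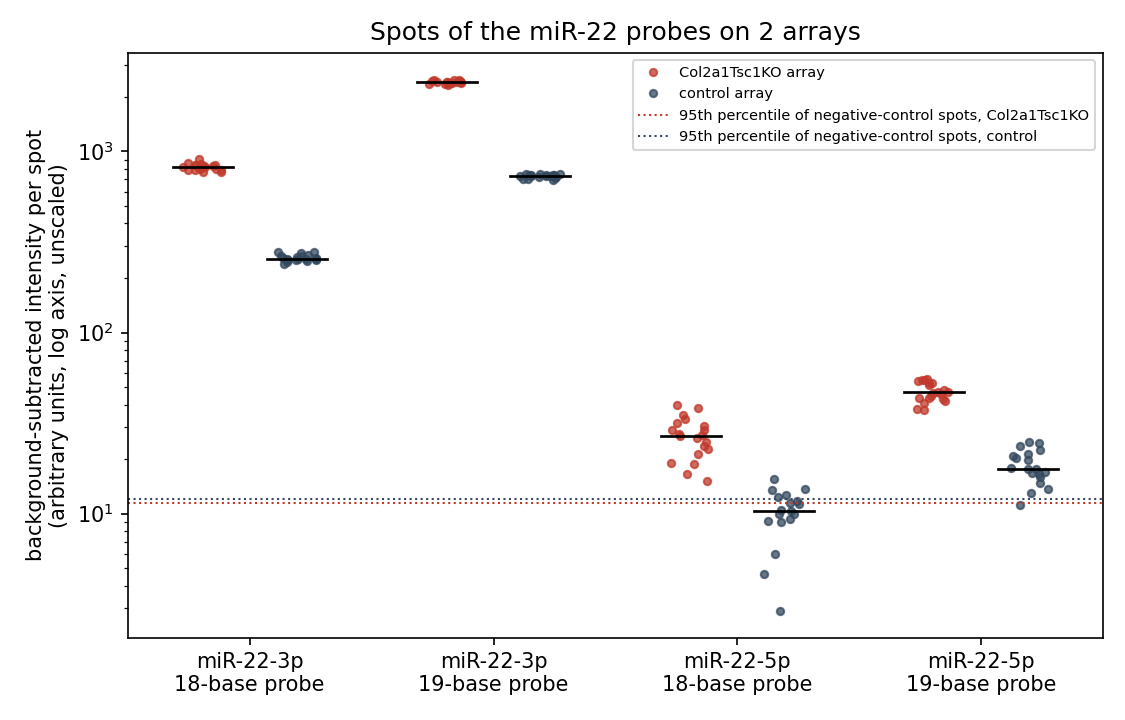
Background-subtracted intensity of each usable spot (log axis, arbitrary units, unscaled) of the 4 miR-22 probes, Col2a1Tsc1KO array in red and control array in dark blue, with the median as a black line and the 95th percentile of negative-control spots (11.4 and 12, in the same order) as dotted lines. The miR-22-3p spots form separate bands on the 2 arrays, while control spots of the miR-22-5p 18-base probe lie around the negative-control lines.

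The 5p arm, mmu-miR-22-5p, from the other strand of the hairpin stem, was dim and well above background on the Col2a1Tsc1KO array alone. Its 18-base probe had a lowest, median and highest intensity of 15.1, 27 and 39.6 over 20 spots on the Col2a1Tsc1KO array, against 2.90, 10.4 and 15.6 over 18 usable spots on the control array. Of these spots, 16 were well above background on the Col2a1Tsc1KO array and 0 on the control array. A single Col2a1Tsc1KO spot fell within the control range before scaling, and 4 did so after it.

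The 19-base miR-22-5p probe was brighter over its spots and separated the arrays. It had a lowest, median and highest intensity of 37.5, 46.65 and 55.1 over 20 spots on the Col2a1Tsc1KO array, against 11.1, 17.7 and 24.8 over 19 spots on the control array. All 20 spots were well above background on the Col2a1Tsc1KO array, against 4 of 19 on the control array. The ranges did not overlap before or after scaling, again without the share of all probes for which this holds.

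Since the control level of miR-22-5p has only a bound, its fold is given as a minimum. Its scaled intensity was 30.2 on the Col2a1Tsc1KO array and a measured 15.1 on the control array, where the lowest probe well above background stood at 24.9. Over both probes it was at least 1.22-fold higher on the Col2a1Tsc1KO array, and by the 19-base probe at least 1.63-fold. This minimum depends on the processing: it ran from 1.12-fold to 1.64-fold over the 10 alternatives that gave a bound. For the 18-base probe the Col2a1Tsc1KO signal, 22.5, lay under that control limit, so it gives no fold by itself. Its bound, 0.91-fold, is averaged on the log2 scale with that of the 19-base probe in the 1.22-fold. The miRNAs well above background on the Col2a1Tsc1KO array alone were 39 of 1247, or 3.13%. Among these 39, a bound above 1 was reached by 18, or 46.2%, and that of miR-22-5p ranked 10.

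The signal of the control miR-22-5p probes was not at the level of the negative controls in every spot. On the control array 18 of 19 usable spots of the 19-base probe and 5 of 18 of the 18-base probe exceeded 12, the 95th percentile of the 1000 negative-control spots there. On the Col2a1Tsc1KO array all 20 spots of each probe exceeded that percentile, 11.4. The scanner software marked miR-22-5p as detected on both arrays.

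The brightest miRNAs had a higher median difference than the dimmer ones on these arrays. miR-22-3p was among the 64 brightest of the 257 miRNAs, whose median log2 difference was 0.37. Of these 64, 17 were higher by 2-fold or more and 9 lower by as much. The 65 dimmest had a median of -0.30, with 1 higher and 9 lower, and the median over all 257 was -0.22. Between them, the next 64 in rising brightness had a median of -0.24 and the 64 after those -0.30. The medians thus did not rise step by step with brightness. The part of brightness in the miR-22-3p difference was not tested. The 4 miRNAs nearest to it in brightness did not share its difference: miR-148a-3p stood at 0.76 ± 0.0095 and miR-26b-5p at 0.55 ± 0.016, while miR-142-3p was at -0.95 ± 0.025. The last of the 4, miR-3968, was at -0.27 ± 0.030, a sign that turns when the arrays are left unscaled, are scaled to all probes or to spike-ins, or are read by the software's totals with or without a running sum. Probe brightness is no measure of abundance between miRNAs.

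Of the 4 miRNAs nearest to miR-22-3p in difference, 3 were also among the 64 brightest, and miR-101c was dimmer. The 4 were miR-99a-5p at 1.28 ± 0.018, miR-27a-3p at 1.27 ± 0.0098, miR-101c at 1.27 ± 0.026 and let-7b-5p at 1.26 ± 0.012 on the log2 scale. Their scaled intensities ran from 102 for miR-101c to 4597 for let-7b-5p on the Col2a1Tsc1KO array, and from 42.4 to 1915 for the same miRNAs on the control array. Likeness here is closeness of 1 difference between 2 arrays.

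**Figure D2:**
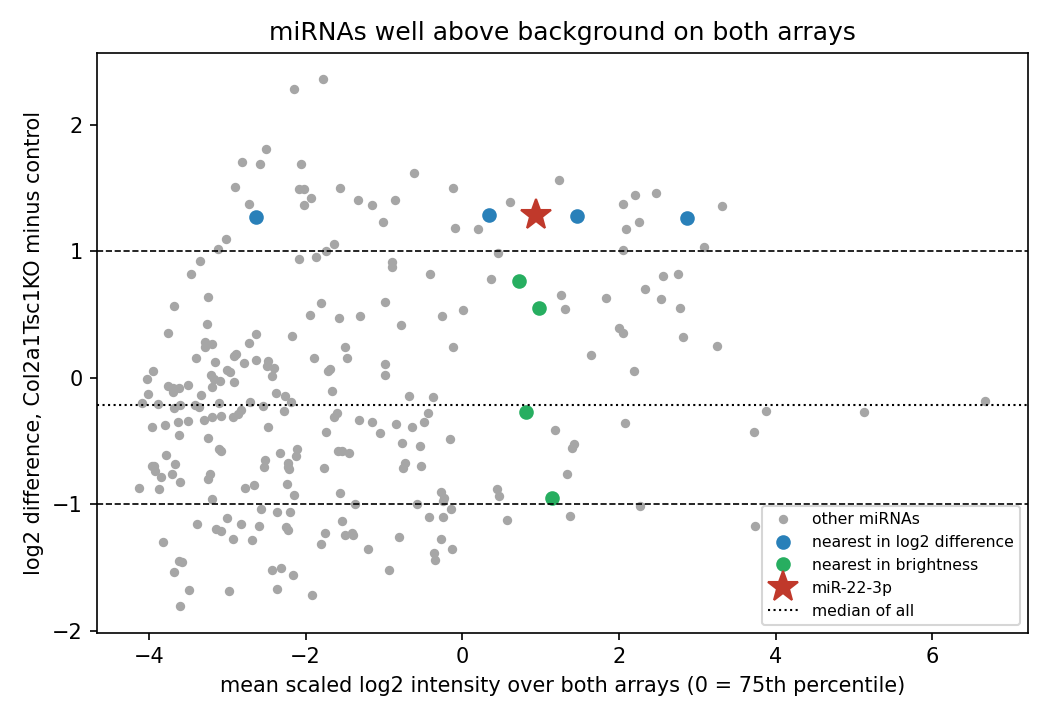
Log2 difference, Col2a1Tsc1KO minus control, against the mean scaled log2 intensity over both arrays for the 257 miRNAs well above background on both, with dashed lines at a 2-fold difference and a dotted line at the median, -0.22. miR-22-3p (star) lies above the upper dashed line at 1.29, while its 4 neighbours in brightness (green) spread from -0.95 to 0.76.

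miR-22-3p was set beside other miRNAs followed in osteoarthritic cartilage. Of 18 listed, 16 were well above background on both arrays, 8 were higher by 2-fold or more and 1 lower by as much, where 15.6% and 17.5% of all 257 were so. The list's median was 0.97, and 0.94 over the 15 other than miR-22-3p, against -0.22 over all 257. Of the 15 others, 7 were at least 2-fold higher. This list and that for Hdac4 below were chosen with earlier results of these data known, so their counts are a description alone. miR-22-3p was the fifth highest of the 16. Above it stood miR-34a-5p, which p53 induces, at 2.28 ± 0.036, the cartilage miRNAs miR-455-3p at 1.71 ± 0.055 and miR-140-5p at 1.38 ± 0.0096, and miR-146a-5p, which dampens cytokine signalling, at 1.49 ± 0.036.

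The other 11 measured on both arrays lay below miR-22-3p. miR-181a-5p at 1.23 ± 0.016, miR-27b-3p, known to repress the collagenase MMP13 in human chondrocytes, at 1.18 ± 0.022 and miR-140-3p at 1.01 ± 0.013 were also past 2-fold. The last of these, close to the cut, was past it in 10 of 14 alternatives of processing. The myeloid miR-223-3p was lowest at -1.17 ± 0.012. miR-483-5p, which in human osteoarthritic cartilage was described together with miR-22, was well above background on the Col2a1Tsc1KO array alone and at least 1.93-fold higher there, and miR-9-5p was not well above background on either.

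**Figure D3:**
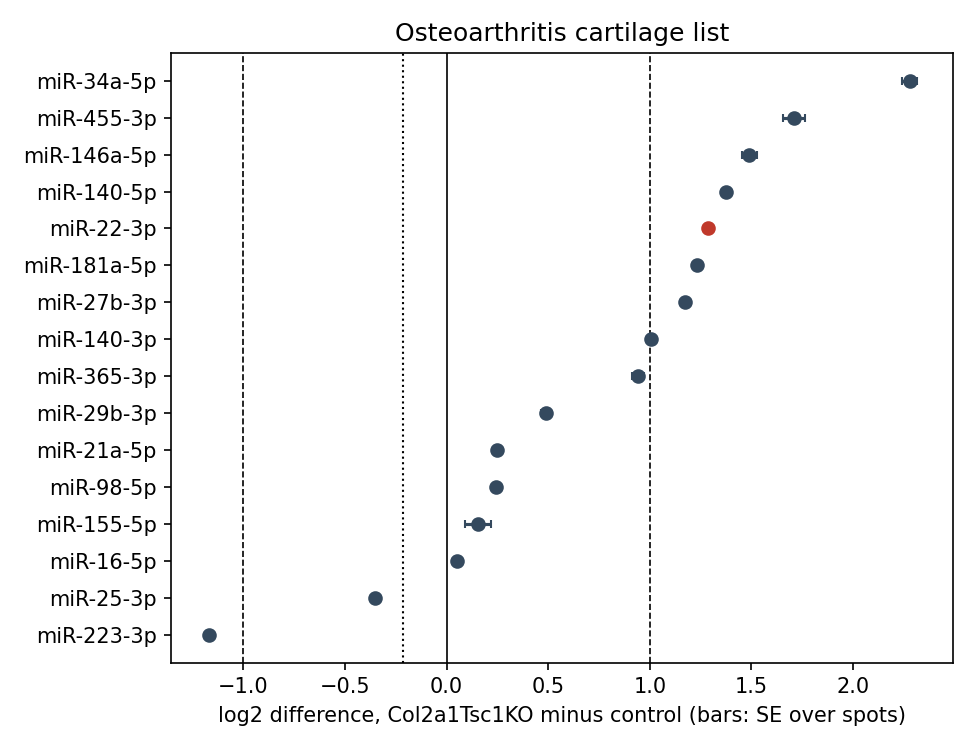
Log2 difference, Col2a1Tsc1KO minus control, of the 16 miRNAs of the osteoarthritis list well above background on both arrays, with bars for the standard error over spots, dashed lines at a 2-fold difference and a dotted line at the median of all 257 miRNAs. miR-22-3p (red) lies between miR-140-5p at 1.38 and miR-181a-5p at 1.23.

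Of 7 miRNAs known to repress Hdac4, 6 were well above background on both arrays. miR-140-5p (1.38) and miR-22-3p (1.29) were the 2 at least 2-fold higher, and none of the 6 was at least 2-fold lower, where 15.6% of all 257 were higher and 17.5% lower by as much. Without miR-22-3p the count higher was 1 of 5, near that share. The chondrocyte miRNA miR-365-3p was at 0.94 ± 0.030 and the collagen-repressing miR-29b-3p at 0.49 ± 0.021. Of the muscle miRNAs listed, miR-1a-3p was at -0.94 ± 0.022 and miR-206-3p at 0.05 ± 0.083. The list's median was 0.71, and 0.49 over the 5 other than miR-22-3p.

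Near Mir22 on chromosome 11, 3 other miRNA hairpins of the RefSeq table lie within 500000 bases, counted from start to start. The closest, Mir3971, is 87713 bases away, and miR-3971 was not well above background on either array. Mir132 and Mir212, a pair induced by neuronal activity and growth signals, are 290034 and 290328 bases away. miR-212-3p, well above background on both arrays, differed by 0.13 ± 0.078, so it did not share the difference of miR-22-3p. miR-132-3p was well above background on the Col2a1Tsc1KO array alone, where its signal lay under the control limit and gives no fold.

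Markers of cell types also differed between the arrays. The summed scaled intensity of the 4 chondrocyte markers, all measured, was 5268 on the Col2a1Tsc1KO array and 2322 on the control array, and 3 of them were at least 2-fold higher, where 15.6% of all 257 were so. These 3, miR-140-5p, miR-140-3p and miR-455-3p, are also in the osteoarthritis list, so the 2 counts are not separate. miR-140-3p, at 1.01, was at least 2-fold higher in 10 of 14 alternatives. The fourth chondrocyte marker, miR-455-5p, was at -0.03 ± 0.137, a sign that turned in 10 of 13 alternatives. For 4 measured of 6 skeletal muscle markers the sums were 737 on the Col2a1Tsc1KO array and 1410.4 on the control array. Neither array had miR-208b-3p or miR-499-5p well above background. For the 4 leukocyte markers, all measured, the sums were 4454 on the Col2a1Tsc1KO array and 9633 on the control array, and 1 of the 4, the bright miR-223-3p, was at least 2-fold lower, where 17.5% of all 257 were so. miR-150-5p was higher, at 0.64 ± 0.057. Its sign turned in 1 of 14 alternatives, the software's totals, and not once their running sum was removed.

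For 2 measured of 4 red cell markers on the array the sums were 3472 on the Col2a1Tsc1KO array and 2340.4 on the control array. The 2 measured were miR-451a at 0.55 ± 0.011 and miR-144-3p at 1.51 ± 0.037. Only the Col2a1Tsc1KO array had miR-144-5p well above background, and its bound, 0.97-fold, gives no higher level there. Neither array had miR-486-3p well above background. For both endothelial markers the sums were 1977 on the Col2a1Tsc1KO array and 1555 on the control array, though miR-126-3p turned lower on the Col2a1Tsc1KO array under both quantile settings, as did miR-126-5p when dim probes were floored. The part of these cell types in the miR-22-3p difference was not tested.

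The deposited log2 values, in which both arrays have been brought to 1 distribution, put both arms higher on the Col2a1Tsc1KO array. miR-22-3p stood at 10.01 for the Col2a1Tsc1KO sample and 8.98 for the control sample, a difference of 1.03. miR-22-5p stood at 4.71 for the Col2a1Tsc1KO sample and 2.92 for the control sample, a difference of 1.79, without regard to whether its control spots were well above background. Across 14 alternatives of processing the miR-22-3p difference ran from 1.03 to 1.73, at least 2-fold in each of the 14, and lay 1.03 to 1.84 above the median of all miRNAs in its setting.

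**Figure D4:**
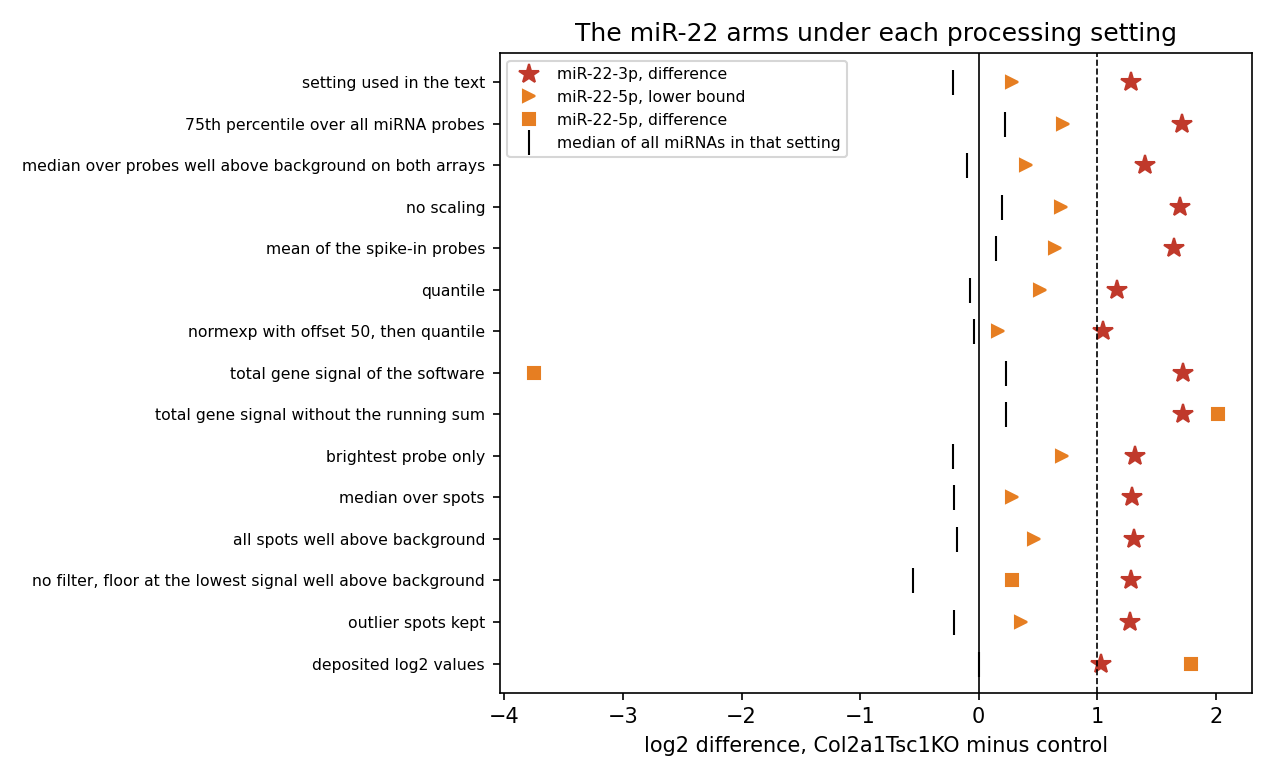
Log2 difference, Col2a1Tsc1KO minus control, of miR-22-3p (stars) and of miR-22-5p (triangles for lower bounds, squares for differences) under the setting used in the text and 14 alternatives, with the median of all miRNAs in each setting as a tick. All miR-22-3p stars lie right of the dashed line at a 2-fold difference, and miR-22-5p is below 0 with the software's total gene signal alone, at -3.75.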

How the data were processed

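Levels of miRNAs were measured with 2 one-colour Agilent arrays, 1 per group. Agilent Feature Extraction 10.7 gave the deposited spot intensity, per the file headers and the submitters' notes. It subtracted background with spatial detrending and did no scaling between arrays. The making of the deposited log2 values is not given by any source used here. Their column medians, -3.32 for the Col2a1Tsc1KO sample and -3.26 for the control sample, are their floors. Their top 337 ranks hold equal values in both columns. Quantile normalization of the software's probe totals, summed per miRNA, gave differences within a median of 1.59e-06 of theirs. They are thus log2 values with no further centring and the direction of the signals.

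Outlier spots were dropped, and the mean log2 intensity of a probe's spots was taken. Probes with over 50% of spots marked well above background by the software counted as such. Arrays were scaled to the 75th percentile of 476 probes that passed on both. A miRNA that passed on 1 array got a bound: its signal over the higher of the other array's lowest passing probe and its own signal there. An absolute log2 difference of 1 served for counts, with no p-value. Computation was in Python 3.11.15, with normexp (offset 50) in limma 3.58.1 and folding in RNAfold 2.7.2. The probe summary, the scaling, the differences and the quantile step were run on simulated data. There, the background marks of the control array served for both groups. The bounds, normexp and the software's totals were not part of that run.

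Named miRNAs were both arms, the 4 nearest to miR-22-3p in difference and in brightness, miRNAs sharing a seed, and list members. The hairpins near Mir22 and miR-3966 were added after values were seen. The members and lists were chosen with earlier results of these data known. One list of miRNAs is not reported here. Alternatives changed the scaling, background correction, probe filter, spot summary and source of values.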

Additional observations from a re-analysis of the deposited data

How the results depend on the processing

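The miR-22-3p difference of 1.29 became 1.72 when arrays were scaled to the 75th percentile of all probes, 1.40 by the median, 1.65 by spike-ins, 1.70 when unscaled, 1.17 after quantile normalization, 1.05 after normexp, 1.73 by the software's total gene signals, also 1.73 once their running sum was removed, and 1.03 in the deposited values. In the other 5 alternatives it moved by less than the spot SD of 0.047. The log2 bound of miR-22-5p, 0.28, became 0.71 with scaling to all probes, 0.69 unscaled, 0.71 by the brightest probe and 0.16 after normexp. As a difference it was 1.79 in the deposited values, 2.02 by totals whose running sum was removed and -3.75 by the software's totals, where the control total held that of miR-22-3p. The 40 miRNAs at least 2-fold higher became 16 after normexp, 73 by the software's totals and 75 once their running sum was removed. The 45 at least 2-fold lower became 13 with scaling to all probes, 14 by spike-ins, 13 unscaled, 10 after normexp, 27 by the software's totals and 22 once their running sum was removed. Scaling by a constant shifts every difference alike, so the rank of miR-22-3p was 25 of 257 under each such scaling. Over all settings, which differ in the number of miRNAs ranked, it ran from 9 of 257 after normexp to 48 of 304 in the deposited values. No paired analysis was possible because each group holds 1 array, and no replicate could be left out. The number of arrays limits the precision, and the dim control signal of miR-22-5p allows a bound alone.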

Other observations

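The software's total gene signal of miR-22-5p on the control array was 392.9, while the 1 of its 2 probes counted there had a total of 7.19. The remainder, 385.8, equals the total of miR-22-3p on that array. On the Col2a1Tsc1KO array the total of miR-22-5p, 29.2, was the sum of its 2 probes, and the total of miR-22-3p was 1276. Such remainders were found for 92 of 348 miRNAs that the software marked as detected on the Col2a1Tsc1KO array and 82 of 327 on the control array. In 90 and 81 of these, in the same order, the remainder matched the total of another miRNA within 0.1%.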
